A study of Mus musculus with 4 samples.

Results

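Autophagy is the process by which a cell wraps part of its own cytoplasm in a membrane, the autophagosome, and delivers it to the lysosome, where acid hydrolases break it down. The genes described here are 44 listed by name: 25 of the machinery that starts and builds the autophagosome, 2 cargo receptors, 15 of the lysosome and the transcription factor genes Tfeb and Tfe3. Of these, 43 were measured, each by 1 feature, among 19505 genes with a symbol on the array. Ctsd was not analysed here, which left 14 lysosomal genes. They were measured on 4 Clariom S Mouse arrays in CD8+ T cells that came from C57/BL6 mice, out of both spleen and lymph nodes.

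The spermidine group was 2 cultures to which 25 µM spermidine, a polyamine, had been added. The control group was 2 cultures left without it. All 4 cultures were activated for 3 days with beads carrying antibodies to CD3 and CD28, in medium with interleukin 2, so every value is from activated cells. The labels call the arrays of a group biological replicates but do not name the animals or say whether cultures shared them, so p-values cover no more than the spread between these 4 samples. The series asks how spermidine alters gene expression in activated CD8+ T cells. Each array gives a log2 signal per gene, so a difference of 1 is a doubling of the signal.

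Polyamines have long been studied as inducers of autophagy in yeast, worms, flies and mammalian cells. In mouse B cells, spermidine is used to modify the translation factor eIF5A, and that modification has been linked to the amount of TFEB protein. TFEB and TFE3 switch on lysosomal and autophagy genes when they enter the nucleus, a step set by protein phosphorylation. In CD8+ T cells autophagy is known for its part in survival and memory, and the cytotoxic granule is itself a modified lysosome. An array measures RNA and not the flux of material through the pathway.

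The defining markers of CD8+ T cells were bright on every array. Cd8a stood at 16.59 and 16.57 in the spermidine arrays and at 16.66 and 16.68 in the control arrays, and Cd8b1 and Cd3e also lay above 15 on every array. The 11 measured CD8 T cell markers averaged 13.47 and 13.53 with spermidine and 13.54 and 13.58 in controls, with 5 higher and 6 lower. Both spermidine arrays lay below both controls in 4 of them (36.4%, against 18.4% of all features) and above in 1 (9.09%, against 18.3%). A background level of 6.35 was taken from probes designed to match nothing in the genome (their 95th percentile, averaged over arrays). All 13 measured macrophage markers lay below background on every array. The list of macrophage markers averaged 3.72 and 3.87 with spermidine and 3.69 and 3.70 in controls. All 8 dendritic cell markers and all 7 neutrophil markers also lay below background on every array. B cell markers averaged 5.77 and 5.42 with spermidine and 5.27 and 5.19 in controls, with 8 of 9 higher and 6 of 9 below background on every array. In 5 of these 9 (55.6%, against 18.3% of all features) both spermidine arrays lay above both controls, and in 0 below (against 18.4%). CD4 T cell markers averaged 7.72 and 8.08 with spermidine and 7.66 and 7.89 in controls, and 3 of 4 lay above background on every array. Of these 4 markers 1 was higher and 3 were lower, with a median log2 difference of -0.06. Cd4 itself had 6.59 and 7.24 with spermidine, against 7.11 and 6.84 in controls. The 1 higher marker was Zbtb7b, a factor of the CD4 lineage, higher in both spermidine arrays by 0.76 ± 0.26 (log2, SE). Cd4 and Zbtb7b were both picked out after their values were seen. NK cell markers, some of which activated CD8+ T cells also express, averaged 7.80 and 7.30 with spermidine and 7.95 and 7.38 in controls, and 3 of 4 lay above background. The part of these other cell types in the differences given here was not tested. In such bulk samples fewer cells of a type and less RNA per cell cannot be told apart.

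With spermidine, 35 of the 43 genes had a higher mean signal and 8 a lower one. Their median log2 difference was 0.21, against -0.01 for all 22206 gene features, of which 49.1% were higher. The median was 0.14 for the 25 machinery genes and 0.23 for the 14 lysosomal genes, and the differences of the receptor genes Sqstm1 and Nbr1 were 1.09 and 0.51. These are differences smaller than a doubling in every gene but Sqstm1. They are values and not called changes: by limma with Benjamini-Hochberg adjustment over all features, 0 of 43 genes and 0 of all features (0%) had an adjusted p under 0.05.

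At an unadjusted p under 0.05 there were 3 higher genes, Sqstm1, Ulk1 and Atg16l1, which is 6.98% of the 43 against 3.38% of all features. Atg10 was the only lower gene at that level, which is 2.33% against 3.64% of all features. Ulk1 lay below background on every array. The 37 genes with a mean at or above background held 2 higher (5.41%) and 1 lower (2.7%), against 333 and 491 of 9228 such features. In 18 of the 43 genes (41.9%) the groups were apart, with both spermidine arrays above both controls, against 18.3% of all features. In 4 genes (9.3%), Tfe3, Becn1, Atg5 and Atg10, both lay below, against 18.4%. In the other 21 genes the groups overlapped. Among the 37 genes with a mean signal at or above background, 15 lay above (40.5%, against 19.2% of the features at that level) and 4 below (10.8%, against 22.5%). With 2 arrays a group, an exact permutation test cannot give a p below 0.333, so none was run on single genes.

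Both spermidine arrays took part. Of the 43 genes, 24 (55.8%) exceeded both controls in spermidine replicate 1, against 33.7% of all features, and 27 (62.8%) did so in spermidine replicate 2, against 34.8%. The median gap between replicate arrays was 0.26 in the spermidine group and 0.20 in the control group for these genes, close to the 0.27 and 0.25 of all features. Many differences were therefore of the size of the gap between arrays of the same group.

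**Figure D1:**
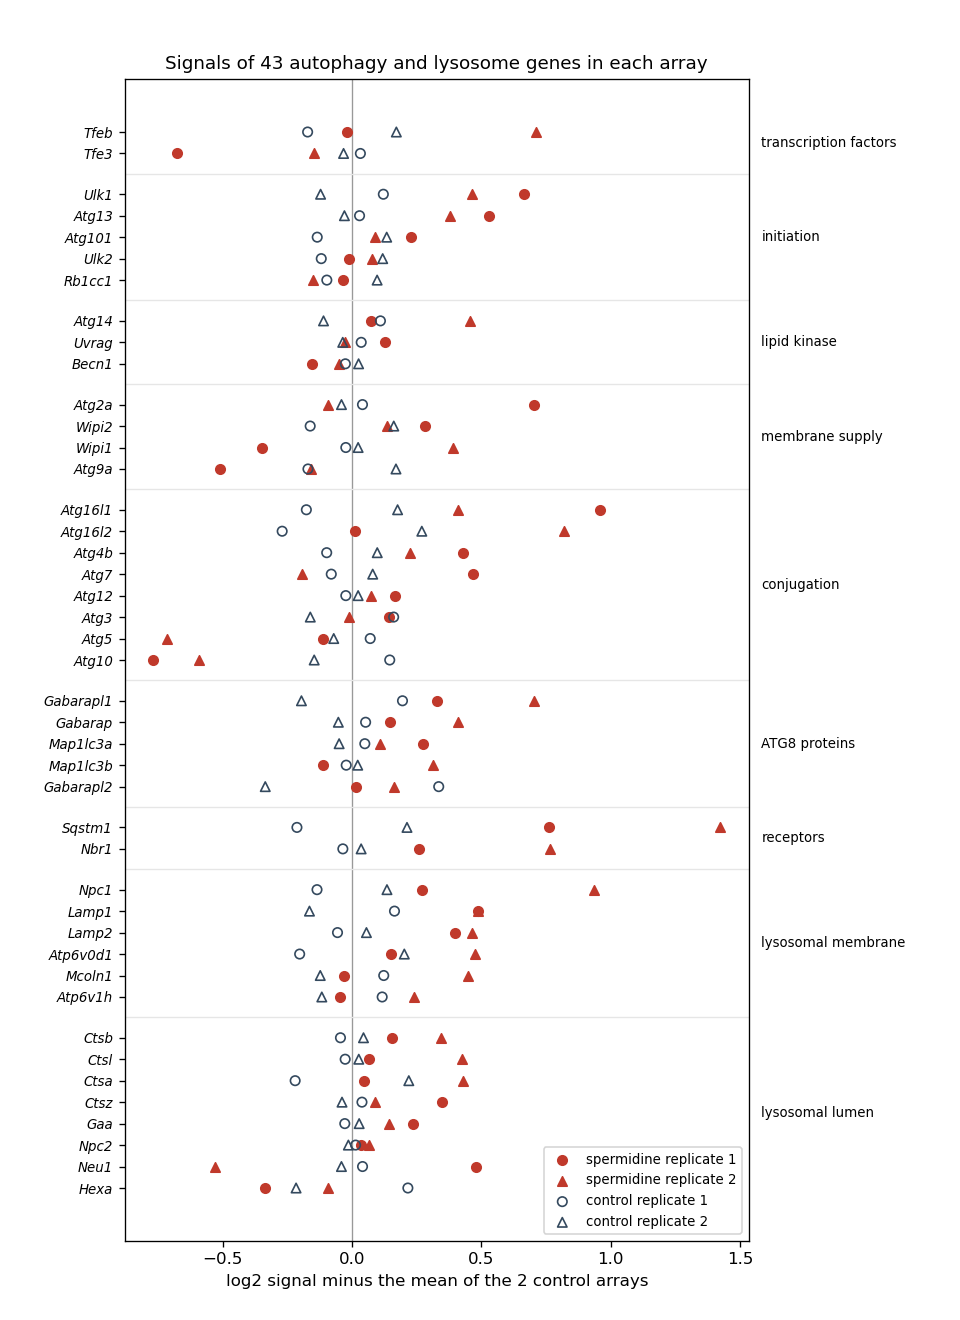
Log2 signal of each of the 43 genes in every array, minus the mean of the 2 control arrays of that gene (horizontal axis); filled points are spermidine arrays, open points control arrays, circles replicate 1 and triangles replicate 2, with genes grouped by role. Sqstm1 lies farthest to the right, and Atg10 has both spermidine arrays well to the left of its controls.

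The transcription factor genes had differences of opposite sign. Tfeb, the master regulator of lysosomal genes, had 6.81 and 7.54 in the spermidine arrays, against 6.66 and 6.999 in the control arrays. Spermidine replicate 2 was the highest of the 4 and replicate 1 fell between the controls, so the groups overlapped and the log2 difference was 0.35 ± 0.30 (SE; adjusted p = 0.846). Without spermidine replicate 2 that difference was -0.020. Its relative Tfe3 had 8.09 and 8.62 with spermidine, against 8.80 and 8.73 in controls. Spermidine replicate 1 was clearly lower and replicate 2 slightly, and the log2 difference was -0.41 ± 0.26 (SE; adjusted p = 0.796), or -0.15 without spermidine replicate 1.

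TFEB and TFE3 bind a motif named CLEAR, whose core contains an E-box. RefSeq promoters of build GRCm38.p6, from 250 bases before to 50 bases after the start site, were found for 35 of the 43 genes and searched on both strands. The E-box CACGTG was present in 10 of 35 (28.6%), against 9.26% of 15691 array genes with a promoter. Its extended form TCACGTGA, which always holds an E-box as well, was present in 4 of 35 (11.4%), against 1.45%. The 4 genes were Ctsa, Mcoln1, Atp6v0d1 and Atg3. Lamp1 held 4 E-boxes and no extended form. These stretches are shown because they carry the letters through which TFEB and TFE3 are known to act on lysosomal genes; capitals mark the E-boxes and extended forms, and positions count from the start site as 0.
Ctsa, chr2:164833749-164833795, plus strand: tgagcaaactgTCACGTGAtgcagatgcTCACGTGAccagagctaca
Mcoln1, chr8:3500436-3500491, plus strand: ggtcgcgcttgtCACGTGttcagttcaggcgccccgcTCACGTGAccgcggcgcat
Atp6v0d1, chr8:105566050-105566079, minus strand: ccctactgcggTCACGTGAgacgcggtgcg
Atg3, chr16:45158723-45158775, plus strand: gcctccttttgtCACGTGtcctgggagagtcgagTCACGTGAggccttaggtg
Lamp1, chr8:13159088-13159163, plus strand: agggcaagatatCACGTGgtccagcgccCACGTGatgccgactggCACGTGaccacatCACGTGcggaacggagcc

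In Lamp1 the E-boxes began at -61, -45, -28 and -15, and in Ctsa at -12 and 5. The 10 genes that hold an E-box had a median log2 difference of 0.22, with 9 higher, and the 25 genes without one had a median of 0.21, with 20 higher. In 3 of the 10 and in 10 of the 25 both spermidine arrays lay above both controls, and this was so in 0 of the 4 genes with the extended form, against 18.3% of all features. The other motifs searched were TGACNNNGC, the core of the antioxidant response element bound by NRF2, in 5 of 35 promoters (14.3%, against 15.0% of array genes), and the forkhead motif GTAAACA, in 0 of 35 (against 3.47%). A match is a stretch of letters and not evidence of binding.

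Initiation of autophagy depends on the ULK kinase complex, which mTORC1 and AMPK regulate. Ulk1, its catalytic kinase, had 5.70 and 5.49 with spermidine, against 5.15 and 4.91 in controls. Both spermidine arrays were higher (log2 difference 0.56 ± 0.23, SE; adjusted p = 0.706), but every array lay below background, where differences of signal are compressed and are no measure of the fold. Atg13, the scaffold that joins the kinase to its partners, had 4.51 and 4.36 with spermidine, against 4.01 and 3.95 in controls. It too was higher in both arrays and below background in all 4 (0.45 ± 0.22, SE; adjusted p = 0.734). The members above background differed little: the related kinase Ulk2 by 0.03, the ATG13 partner Atg101 by 0.16 and the scaffold Rb1cc1, also called FIP200, by -0.09, and in these 3 the groups overlapped.

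The lipid kinase complex that Beclin 1 assembles makes the phosphoinositide which marks the new membrane. Becn1 had 9.21 and 9.32 with spermidine, against 9.34 and 9.39 in controls. Both spermidine arrays were lower, by a log2 difference of only -0.10 ± 0.22 (SE; adjusted p = 0.955). Atg14, which directs the complex to the forming autophagosome, had 5.58 and 5.96 with spermidine, against 5.61 and 5.39 in controls. The groups overlapped below background, with a log2 difference of 0.26 ± 0.24 (SE). Uvrag, the subunit of the endosomal form of the complex, differed by 0.05.

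Of the genes that supply and shape the membrane, none had groups apart. Atg9a, a scramblase carried on vesicles, had 9.37 and 9.72 with spermidine, against 9.71 and 10.05 in controls, a log2 difference of -0.33 ± 0.25 (SE). Atg2a, a lipid transfer protein, had 8.69 and 7.89 with spermidine, against 8.02 and 7.94 in controls. Its spermidine arrays lay on either side of the controls: the difference was 0.31 with all arrays and -0.09 without spermidine replicate 1. The phosphoinositide readers Wipi2 and Wipi1 differed by 0.21 and 0.02, Wipi1 below background on every array.

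The conjugation genes held the machinery's largest differences in either direction. ATG7 activates the ubiquitin-like proteins, and the conjugating enzymes ATG3 and ATG10 join them to their targets. ATG12 is joined to ATG5, and this conjugate with ATG16L1 places LC3 on the membrane. Atg16l1 had 9.96 and 9.41 with spermidine, against 8.82 and 9.18 in controls. The groups were apart, with a 1.61-fold difference (log2 0.68 ± 0.27, SE; adjusted p = 0.692). Its relative Atg16l2, which does not replace it in canonical autophagy, had a log2 difference of 0.42 with overlapping groups.

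Atg10, the enzyme that joins ATG12 to ATG5, was the lowest of the 43 genes in its difference. It had 7.81 and 7.99 with spermidine, against 8.72 and 8.43 in controls. With spermidine both arrays were lower, a 1.60-fold difference (log2 -0.68 ± 0.23, SE; adjusted p = 0.644). Atg5 had 9.61 and 9.01 with spermidine, against 9.79 and 9.65 in controls. Its spermidine arrays were lower too, replicate 1 by a narrow margin, and the log2 difference of -0.41 ± 0.27 (SE; adjusted p = 0.803) shrank to -0.11 without spermidine replicate 2.

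Atg7, the activating enzyme of both conjugation steps, had 6.41 and 5.75 with spermidine, against 5.86 and 6.02 in controls. Its spermidine arrays lay on either side of the controls, 3 of the 4 arrays were below background, and the difference of 0.14 became -0.19 without spermidine replicate 1. The protease gene Atg4b, which trims LC3 before conjugation, was higher in both spermidine arrays by 0.33, and Atg12 by 0.12. Atg3 differed by 0.07 with overlapping groups.

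The 5 genes of the ATG8 family, the ubiquitin-like proteins coupled to the autophagosome membrane, all had higher means with spermidine. Gabarapl1 had 10.90 and 11.28 with spermidine, against 10.77 and 10.38 in controls. The groups were apart, narrowly so for spermidine replicate 1, with a 1.43-fold difference (log2 0.52 ± 0.26, SE; adjusted p = 0.740). Gabarap had 13.79 and 14.05 with spermidine, against 13.69 and 13.59 in controls, a log2 difference of 0.28 ± 0.23 (SE) with groups apart.

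Map1lc3b, which encodes the LC3B protein used most often to follow autophagosomes, differed less. It had 10.50 and 10.92 with spermidine, against 10.59 and 10.63 in controls. Its spermidine arrays lay on either side of the controls (log2 difference 0.10 ± 0.24, SE; adjusted p = 0.959), and the difference was -0.11 without spermidine replicate 2. Gabarapl2 differed by 0.09 with a gap of 0.67 between its control arrays. Map1lc3a differed by 0.19, below background on all arrays. Genes of this family have closely similar sequences, and the array's probes may not separate them fully.

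The cargo receptors carry ubiquitinated material to LC3. Sqstm1, which encodes p62 and is also known as a target of the antioxidant factor NRF2, had the largest difference of the 43 genes. It had 13.42 and 14.09 in the spermidine arrays, against 12.45 and 12.87 in the control arrays. Both spermidine arrays exceeded both controls. The margin was wider than the gap of 0.43 between the control arrays but narrower than the 0.66 between the spermidine arrays. The means were 13.75 ± 0.47 with spermidine and 12.66 ± 0.30 in controls (SD, n = 2 each), a 2.13-fold difference in signal. The log2 difference was 1.09 ± 0.29 (SE), with an adjusted p = 0.637 (limma), and it ranged from 0.76 to 1.42 when any 1 array was left out.

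The 100 bases before the Sqstm1 start site held none of the motifs searched and are shown as the promoter of the gene with the largest difference. They lie at chr11:50210821-50210920 on the minus strand of GRCm38.p6.
Sqstm1: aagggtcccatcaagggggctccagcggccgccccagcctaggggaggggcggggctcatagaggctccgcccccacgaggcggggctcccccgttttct

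Nbr1, a receptor of related domain structure, was also higher, by less. It had 11.02 and 11.53 with spermidine, against 10.73 and 10.80 in controls. Neither spermidine array overlapped the controls, a 1.43-fold difference (log2 0.51 ± 0.25, SE; adjusted p = 0.738), and the value was 0.26 without spermidine replicate 2. Levels of Sqstm1 and Nbr1 RNA do not show how much of either protein was degraded.

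**Figure D2:**
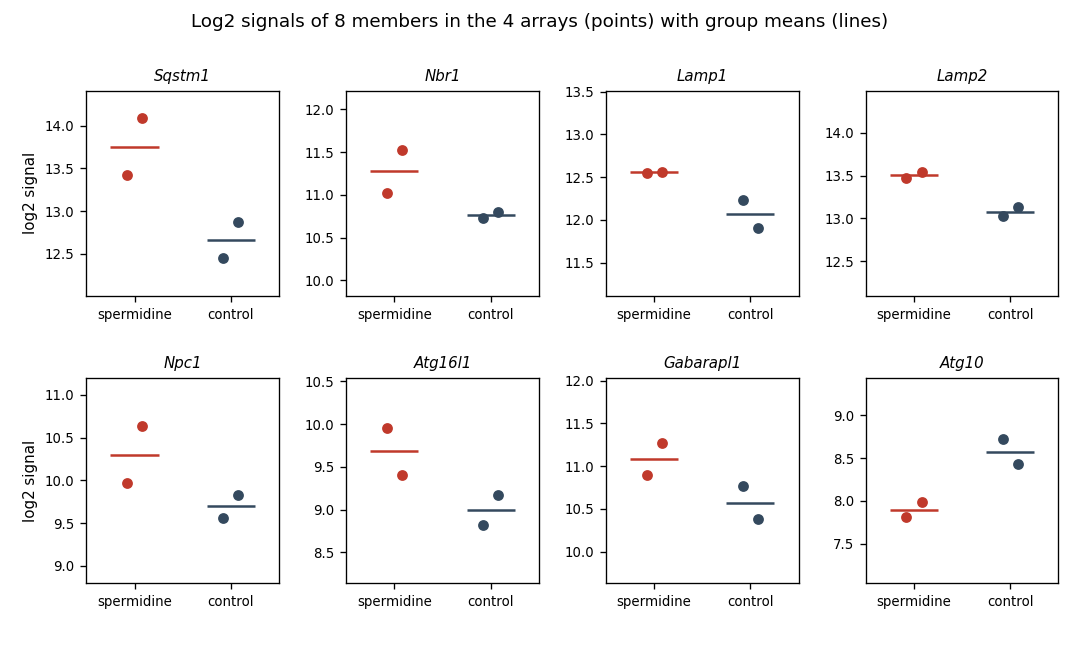
Log2 signals (vertical axis, each panel spanning the same range of 2.4) of 8 genes in the 2 spermidine arrays, left, and the 2 control arrays, right, with replicate 1 and replicate 2 drawn left and right as points and the group mean as a line. The groups are apart in all 8 panels, with Atg10 the one lower in spermidine arrays. These panels are a selection, since the groups overlapped in 21 of the 43 genes.

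The 6 genes of the lysosomal membrane all had higher means with spermidine, with a median log2 difference of 0.37. Lamp1 and Lamp2 encode the abundant glycoproteins that line the membrane; LAMP1 is also the degranulation marker CD107a of cytotoxic T cells. Lamp1 had 12.55 and 12.55 with spermidine, against 12.23 and 11.90 in controls. Lamp2 had 13.47 and 13.54 with spermidine, against 13.02 and 13.13 in controls. In these genes the spermidine arrays nearly coincided and exceeded both controls. The differences were 1.402-fold for Lamp1 (log2 0.49 ± 0.23, SE; adjusted p = 0.733) and 1.35-fold for Lamp2 (log2 0.43 ± 0.22, SE; adjusted p = 0.741).

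Npc1, which exports cholesterol from the lysosome, had the largest lysosomal difference. It had 9.97 and 10.63 with spermidine, against 9.56 and 9.83 in controls. Both spermidine arrays were higher, a 1.52-fold difference (log2 0.60 ± 0.28, SE; adjusted p = 0.727), but the value was 0.27 without spermidine replicate 2 and 0.94 without replicate 1. Npc2, the soluble protein that hands cholesterol to NPC1, differed by only 0.05, with 10.80 and 10.84 with spermidine, against 10.78 and 10.76 in controls.

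Mcoln1 encodes the calcium channel whose release of lysosomal calcium promotes TFEB dephosphorylation. It had 9.47 and 9.94 with spermidine, against 9.62 and 9.37 in controls. The groups overlapped (log2 difference 0.21 ± 0.26, SE), and without spermidine replicate 2 the value was -0.0295. The V-ATPase subunit genes Atp6v0d1 and Atp6v1h, whose products act in the proton pump that acidifies the lysosome, differed by 0.31 and 0.10 with overlapping groups.

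In the lysosomal lumen the differences were smaller, with a median of 0.20 over 8 genes, and 6 of 8 were higher. Ctsb, a cysteine protease, had 12.22 and 12.41 with spermidine, against 12.02 and 12.10 in controls, a log2 difference of 0.25 ± 0.22 (SE; adjusted p = 0.851). Ctsl, a related protease, had 6.32 and 6.68 with spermidine, against 6.23 and 6.28 in controls, and 3 of the 4 arrays were below background. Both proteases had their spermidine arrays above their controls by small margins.

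The protease Ctsz and the glycogen-degrading Gaa were also higher in both spermidine arrays, by 0.22 and 0.19. The serine carboxypeptidase Ctsa, which protects the sialidase NEU1 and whose promoter holds the extended E-box at 2 places, differed by 0.24 with overlapping groups. The glycosidase genes Hexa and Neu1 had the lumen's negative differences, -0.21 and -0.02. The spermidine arrays of Neu1, at 6.90 and 5.89, were 1.01 apart, the widest gap of the 43 genes, while its controls stood at 6.46 and 6.38. Over the lysosomal genes as a whole, 8 of 14 (57.1%) had both spermidine arrays above both controls and 0 had them below. In the machinery these counts were 8 (32%) and 3 (12%) of 25, and over all features the shares were 18.3% above and 18.4% below.

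Other genes of the same pathway, 167 in 6 lists, were read in the same fit, and 156 were measured. Their median log2 difference was 0.06, with 92 higher and 64 lower. None passed the adjusted threshold, and 11 were higher and 4 lower at an unadjusted p under 0.05, which was so of 3.38% and 3.64% of all features. The groups were apart upward in 46 (29.5%, against 18.3% of all features) and downward in 25 (16%, against 18.4%). The plot of cumulative shares places them, at a difference of 0, between all features and the machinery and lysosomal genes.

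**Figure D3:**
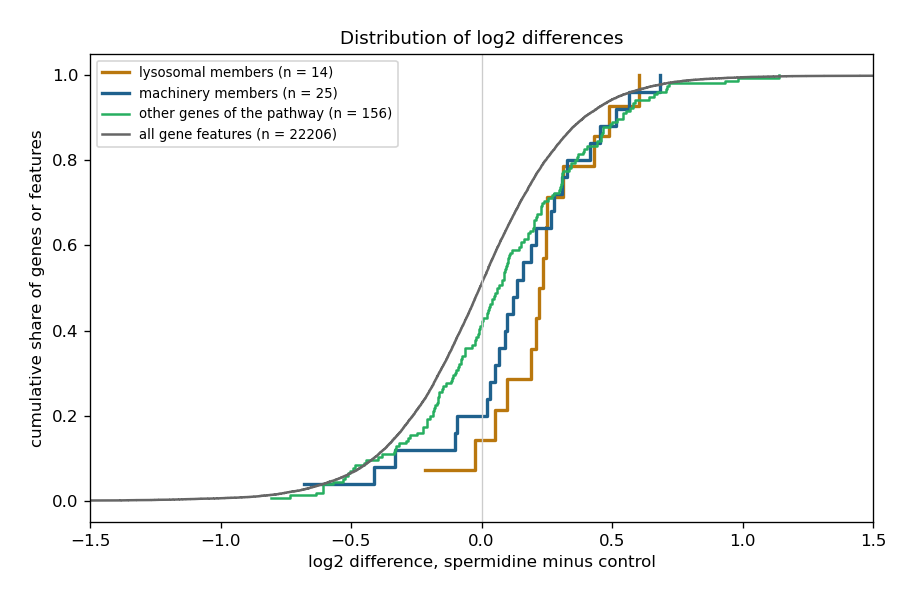
Cumulative share (vertical axis) of genes or features at or below each log2 difference of spermidine minus control (horizontal axis) for 14 lysosomal genes, 25 machinery genes, 156 other genes of the pathway and all 22206 gene features. The lysosomal and machinery curves lie to the right of the curve of all features at a difference of 0, where 2 of 14 lysosomal and 5 of 25 machinery genes lie at or below it.

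Among the other autophagy genes, with 28 measured and a median of 0.18, 3 were higher and 0 lower at the unadjusted threshold, against 3.38% and 3.64% of all features. Trp53inp1, a p53 target whose protein binds ATG8 proteins, had 15.51 and 16.04 with spermidine, against 14.43 and 14.85 in controls. Tecpr1, which tethers autophagosomes to lysosomes, had 10.14 and 10.01 with spermidine, against 8.86 and 9.43 in controls. Snap29, a SNARE protein of autophagosome fusion, had 10.55 and 10.23 with spermidine, against 9.88 and 9.55 in controls. All 3 had their groups apart, with log2 differences of 1.14 ± 0.28, 0.93 ± 0.26 and 0.67 ± 0.25 (SE).

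Of 17 other cargo receptors measured, 7 were higher and 10 lower, with a median of -0.07. Calcoco1, a receptor for autophagy of the endoplasmic reticulum, had 10.91 and 11.98 with spermidine, against 10.19 and 10.73 in controls, a log2 difference of 0.98 ± 0.37 (SE) that was 0.44 without spermidine replicate 2. Rtn3, another such receptor, and the mitophagy receptor Bnip3 were lower in both spermidine arrays, by -0.57 ± 0.23 and -0.81 ± 0.34 (SE). Bnip3 stood at 10.89 and 10.08 with spermidine, against 11.63 and 10.95 in controls, with a margin of 0.06 between the nearest arrays.

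The V-ATPase, hydrolase and lysosomal membrane lists held medians of 0.07, 0.09 and 0.18. Of 16 further V-ATPase genes 10 were higher; the macrophage and osteoclast isoform Atp6v0d2 differed by 0.71 below background, Atp6v0b by 0.58 and the catalytic subunit Atp6v1a by 0.41. The Atp6v0b value rests on control replicate 2, without which it was 0.07; it was 1.09 without control replicate 1. Of 33 further hydrolase genes 20 were higher, among them Aga, which cleaves asparagine-linked sugars, by 0.54 ± 0.22 (SE), and Acp2 by 0.66 below background. The sulfatase Arsb was lower by -0.74 ± 0.25 (SE). Of 25 further membrane genes 13 were higher. The largest statistics were those of the nucleic acid transporter Sidt2 at 0.59 ± 0.23, the cystine exporter Ctns at 0.46 ± 0.22 and the histidine transporter Slc15a4 at 0.44 ± 0.23 (SE).

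The genes of nutrient sensing at the lysosome, 37 measured, had a median of 0.02, and the groups were apart upward in 10 and downward in 10 (27% each, against 18.3% and 18.4% of all features). Foxo3, a transcription factor that activates autophagy genes, had 9.69 and 9.69 with spermidine, against 8.80 and 9.14 in controls, a log2 difference of 0.72 ± 0.23 (SE). Flcn, whose protein lets mTORC1 phosphorylate TFEB and TFE3, had 9.40 and 9.47 with spermidine, against 8.85 and 8.74 in controls, a difference of 0.64 ± 0.22 (SE). Mtor itself had 9.93 and 9.45 with spermidine, against 9.09 and 8.88 in controls, a difference of 0.71 ± 0.25 (SE). These genes include activators and inhibitors of autophagy, and the 3 largest statistics were all positive.

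**Figure D4:**
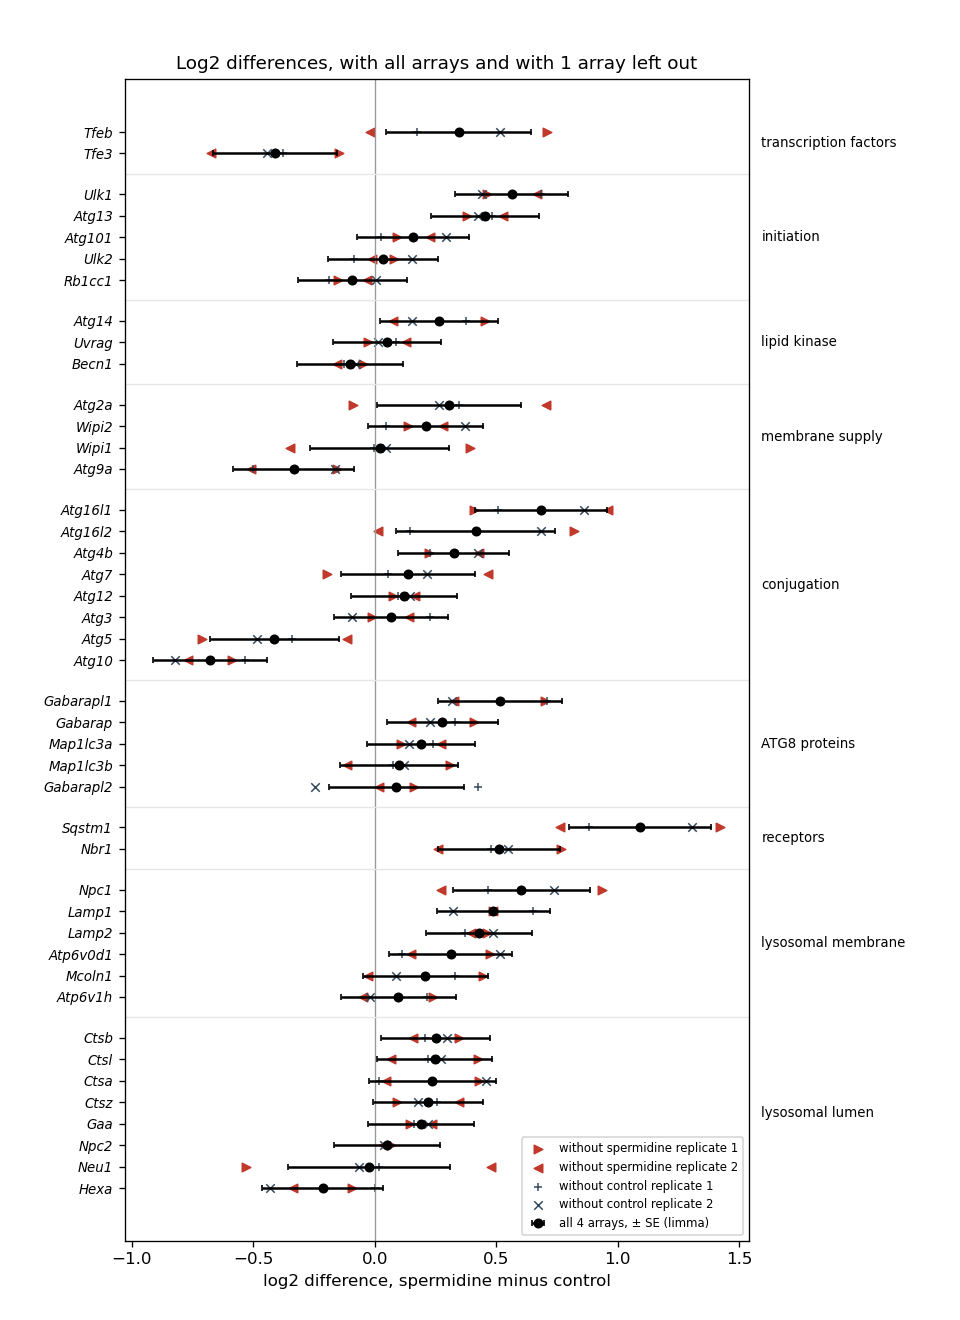
Log2 difference of spermidine minus control for the 43 genes (horizontal axis), by role, as black points with the limma standard error as bars; red triangles give the value without 1 spermidine array and dark plus signs and crosses without 1 control array. Values for Sqstm1, Lamp1, Lamp2 and Atg16l1 stay above 0 in each case and those for Atg10 below, while those for Tfeb, Atg2a, Atg7, Map1lc3b and Mcoln1, among others, cross 0.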

How the data were processed

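The authors deposited a log2 signal for each feature of each array. The submitters' processing notes name RMA and Affymetrix Expression Console; versions and the annotation build are not given in the sources used here. RMA corrects background, equalises array distributions and summarises probes, which compresses differences of dim features; the log2 base was inferred from the values. Of 28846 features, 6640 controls were left out and 22206 gene features tested; 19572 had 1 symbol, from the platform annotation. Array medians ran from 5.13 to 5.25. Arrays have no depth; their number limits precision.

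Groups and replicate numbers came from sample titles. Spermidine was compared with control by limma 3.58.1 in R 4.3.3 (lmFit, eBayes, two-sided, Benjamini-Hochberg over all gene features, threshold 0.05), with 2 residual and 5.96 prior degrees of freedom. The fit was tested on simulated data with independent normal noise and variances drawn from its own prior. That test does not cover effects shared by genes of an array, and its recovery of a doubling is not reported here. The genes and lists were chosen with earlier results of these data known, so no adjustment over a list and no test of a list was made. All measured members are named; full values are given for those fixed by name and the 2 largest statistics of each role, and each other list is shown by the genes with its 3 largest statistics. Promoters are RefSeq's, GRCm38.p6. Alternatives were other prior variances, array weights, renormalization, level filters, the replicate number as a block and leaving out each array.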

Additional observations from a re-analysis of the deposited data

How the results depend on the processing

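No gene of the 43 passed an adjusted p of 0.05 under any alternative run. Among all features 1 passed, Hmox1, which is no autophagy or lysosome gene, with an intensity trend in the prior variance, median centring, cyclic loess, the median level filter or the replicate block, against 0 in the main fit. The median difference of the lysosomal genes, 0.23, became 0.27 after a further quantile normalization and 0.26 after cyclic loess, which also gave 0.17 for the machinery, against 0.14. With 1 array left out in turn the medians ran from 0.15 to 0.22 for the 43 genes, 0.10 to 0.15 for the machinery and 0.15 to 0.39 for the lysosomal genes. The lowest lysosomal value came without spermidine replicate 2 and the highest without replicate 1. The count at an unadjusted p under 0.05, 4 with all arrays, ran from 0 (without control replicate 1) to 6 (without spermidine replicate 1).

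Of 23 genes given in full, all 206 values under alternatives with 4 arrays kept their direction. Most of these could not have done otherwise. Other prior variances, level filters and the replicate block leave the log2 difference as it is, so only renormalization and array weights could move it. With 1 array left out 87 of 92 did so. The others crossed 0: Tfeb ran from -0.020 to 0.71, Atg2a from -0.091 to 0.70, Atg7 from -0.19 to 0.47, Map1lc3b from -0.11 to 0.31 and Mcoln1 from -0.0295 to 0.45. Some of these 23 genes were picked only for large statistics, which favours a kept direction. The others were fixed by name, with earlier results of these data known. Among the members not given in full, Ulk2, Rb1cc1, Uvrag, Wipi1, Atg3, Gabarapl2, Atp6v1h, Hexa and Neu1 also crossed 0. Arrays with the same replicate number deviated together weakly (r = 0.21 across features, which are not independent), but nothing in the labels pairs them; with the replicate block 5 of the 43 genes had an unadjusted p under 0.05, and the lowest adjusted p was 0.224, for Sqstm1. The mean over a symbol's features was not run apart, since each gene had 1. The number of arrays and signals near background limit these results.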
